A study of Mus musculus with 19 samples.

Results

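The 41 genes described here code for RNA splicing factors and the proteins that regulate them, and 40 of them were measured among 18193 genes on Affymetrix mouse expression arrays of fat and of pancreatic lymph nodes (PLNs). Srsf7 was not analysed here. The genes were chosen by name with the values of the fat DIA against NOR comparison already known, so its SEs, thresholds and counts only describe these arrays and are not evidence about the genes. Each gene was followed through 1 probe set, the one with the highest mean log2 signal over the arrays of the tissue. All arrays came from female NOD (NOD/LtJx) mice, a strain that develops autoimmune diabetes, kept on a standard diet. NOR mice were normoglycemic and DIA mice had new onset diabetes. AAT and PM mice were new onset diabetic mice, the former given alpha 1 antitrypsin, a serum inhibitor of serine proteases, and the latter Power Mix. Power Mix combines rapamycin, an inhibitor of the mTOR kinase, with an IL-2 fusion protein and a mutant IL-15 fusion protein that blocks the IL-15 receptor. Fat was profiled on 2 NOR, 2 DIA, 2 AAT and 3 PM arrays, and PLNs on 4 NOR, 2 DIA and 4 AAT arrays. No label or method names the age at sampling, or says whether the arrays of a group came from different mice, and errors and p-values measure the spread between arrays.

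Splicing removes introns from pre-mRNA on the spliceosome, a machine built from small nuclear ribonucleoproteins (snRNPs) and associated proteins. SR proteins, named for their stretches of serine and arginine, bind exons and help the spliceosome find splice sites, whereas many hnRNP proteins, which coat nascent RNA, repress or redirect splice site choice. CLK and SRPK kinases phosphorylate SR proteins, and the L-type cyclins partner CDK11 in the nuclear speckles where splicing factors are stored. Alternative splicing sets, for instance, which form of the insulin receptor a tissue makes and which form of CD45 a T cell carries.

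The labelled tissues carried their defining markers. Adipoq and Fabp4, made by adipocytes, lay at the 99.8th and 100th percentile of genes in fat, and Ms4a1 and Cd3e, of B and T cells, at the 97.5th and 97.3th percentile in PLNs. Values are log2 of the signal, and changes are differences of group means on that scale minus the median difference of all 18193 genes, with the SE of the fitted difference. The p-values and the fold threshold apply to the difference before that median is taken off. A printed change can therefore lie on the other side of the fold threshold from the difference that was tested. The actin 3' to 5' ratio, the signal at the 3' end of the actin control over that at its 5' end, rises when RNA is shortened or copied incompletely. It was 3.63 and 4.30 on the fat NOR arrays, 15.16 and 15.47 on DIA, 9.08 and 5.87 on AAT, and 5.93, 3.35 and 6.32 on PM. In PLNs it lay between 0.88 and 2.31 and the 2 DIA arrays, at 0.88 and 1.10, were within or below the NOR range. The Gapdh 3' to 5' ratio ran otherwise in PLNs, from 5.55 to 8.01 on NOR arrays, 10.02 and 10.78 on DIA, and 7.43 to 24.97 on AAT.

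The splicing genes were among the genes with the highest signals in both tissues. In fat their means spanned 9.35 for Clk4 to 14.31 for Hnrnpk, and 36 of 40 lay at or above the 80th percentile of all genes. In PLNs they spanned 6.89 for Rbfox2 to 14.95 for Hnrnpa2b1, and 33 of 40 lay at or above that percentile. Signals of different probe sets depend on their own binding and set no order of RNA amounts between genes. The members' median lay 2.42 and 3.25 above the median of all genes on the fat NOR arrays and 3.66 and 3.50 above it on the DIA arrays. It lay 3.81 and 2.70 above it on AAT arrays and 3.53, 2.44 and 2.89 above it on PM arrays. The 2 DIA arrays were therefore above both NOR arrays, while AAT 1 was the highest of the 9 and NOR 1 and PM 2 the lowest.

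**Figure D1:**
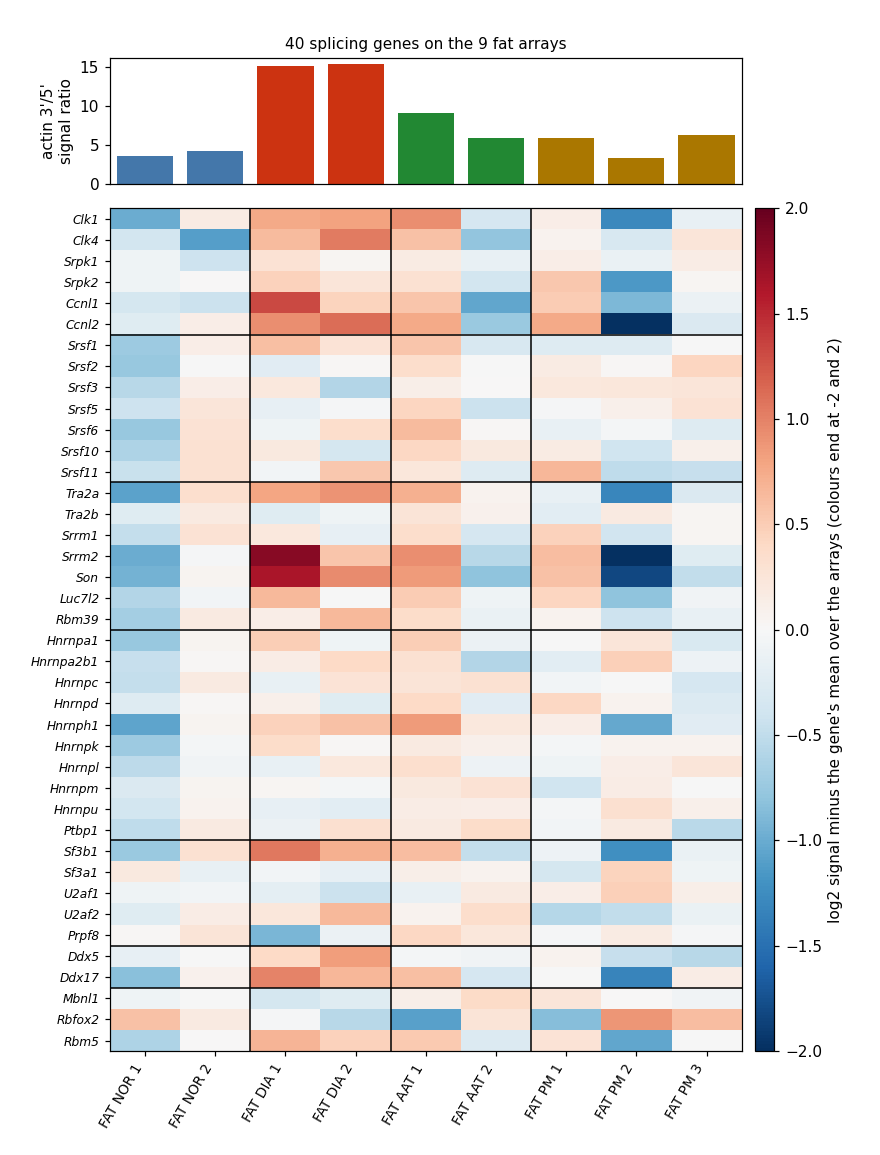
Heat map of the 40 measured splicing genes (rows, in blocks by role) on the 9 fat arrays (columns), each cell the log2 signal minus the gene's mean over the 9 arrays, under bars of each array's actin ratio, 3' over 5' end. Clk1, Clk4, Ccnl1, Ccnl2, Srrm2, Son and Ddx17 are above their means on both DIA arrays and on AAT 1 (actin ratio 9.08) and below them on NOR 1 and PM 2 (3.63 and 3.35).

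In fat, 34 of the 40 genes lay above the all-gene median in DIA against NOR and 6 below, with a median of 0.51 and a range of -0.56 to 1.84. In bulk tissue, fewer cells of a type and less RNA per cell cannot be told apart. Of the 40, 8 were higher by over 2-fold with an unadjusted p of at most 0.05, where 3.24% of all genes were, and 0 were lower, where 3.62% of all genes were. For 19 members both DIA arrays lay above both NOR arrays (17.2% of all genes) and for 4 both lay below (24.1% of all genes). No member, and 0% of all genes, had a limma adjusted p under 0.05, while 8 members had an unadjusted p under 0.05 (8.84% of all genes). The rank product, named by the study's methods, called 4 members higher (7.09% of all genes) and 0 lower (8.16%). As this comparison was in view when the genes were listed, nothing is read from these counts.

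The kinases and cyclins had the highest median of the roles, 1.25, and all 6 lay above the all-gene median. Clk4, a kinase that phosphorylates SR proteins, read 8.99 and 8.25 on the NOR arrays, 9.99 and 10.39 on DIA, 9.94 and 8.57 on AAT and 9.42, 9.04 and 9.60 on PM. The DIA arrays were above both NOR arrays, a difference of 1.68 (SE 0.49). A second Clk4 probe set overlapped between the groups, with 8.43 and 6.39 on NOR and 7.45 and 8.40 on DIA. Clk1, its close relative, read 10.22 and 11.37 on NOR, 11.97 and 12.01 on DIA, 12.14 and 10.87 on AAT and 11.34, 9.92 and 11.06 on PM. The DIA arrays were the closest pair and lay above both NOR arrays by 1.31 (SE 0.54), with AAT 1 above them.

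Ccnl1, cyclin L1, read 11.08 and 11.00 on NOR, 12.75 and 11.87 on DIA, 11.98 and 10.39 on AAT and 11.94, 10.53 and 11.31 on PM. Its DIA mean was 1.38 higher (SE 0.55), with AAT 2 and PM 2 below both NOR arrays. Ccnl2, cyclin L2, read 11.30 and 11.68 on NOR, 12.47 and 12.67 on DIA, 12.31 and 10.81 on AAT and 12.31, 9.11 and 11.25 on PM. The groups did not overlap between DIA and NOR (1.19, SE 0.80), and the 3 PM arrays spread more for this gene than for any other member (SD 1.63, n = 3). Ccnl2 is listed by the study among genes it picked on these same arrays, so it is no independent case. The kinases Srpk1 and Srpk2 differed by 0.53 or less between DIA and NOR.

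Of the 8 genes past both thresholds, 7 have a promoter entry and Clk1 has none. The promoters of 3 of these 7 hold the palindrome TGACGTCA, the element bound by CREB family factors. They are shown with those letters in capitals, together with Ccnl2, where the shorter TGACG is in capitals. Each run covers the transcription start, the bases before it and a shorter stretch after it, 5' to 3', from RefSeq on GRCm38.p6. Relative to the start, the first match begins at -65 in Clk4, -18 in Ccnl1, -27 in Tra2a and -110 in Ccnl2. The runs were picked after the values were seen.
Clk4, chr11:51262864-51263163, plus strand: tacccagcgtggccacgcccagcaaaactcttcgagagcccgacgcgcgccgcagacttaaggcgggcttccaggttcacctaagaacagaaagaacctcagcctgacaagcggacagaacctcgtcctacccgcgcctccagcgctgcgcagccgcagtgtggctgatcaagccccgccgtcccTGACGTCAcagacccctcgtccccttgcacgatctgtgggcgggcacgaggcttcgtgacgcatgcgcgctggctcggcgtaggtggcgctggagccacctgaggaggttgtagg
Ccnl1, chr3:65958200-65958499, minus strand: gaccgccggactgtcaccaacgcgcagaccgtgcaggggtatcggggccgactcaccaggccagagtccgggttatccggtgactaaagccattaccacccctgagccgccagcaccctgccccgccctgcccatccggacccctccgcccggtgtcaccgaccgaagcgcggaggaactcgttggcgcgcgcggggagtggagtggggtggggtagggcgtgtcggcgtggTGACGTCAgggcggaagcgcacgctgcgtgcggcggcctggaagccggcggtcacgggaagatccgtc
Tra2a, chr6:49264003-49264302, minus strand: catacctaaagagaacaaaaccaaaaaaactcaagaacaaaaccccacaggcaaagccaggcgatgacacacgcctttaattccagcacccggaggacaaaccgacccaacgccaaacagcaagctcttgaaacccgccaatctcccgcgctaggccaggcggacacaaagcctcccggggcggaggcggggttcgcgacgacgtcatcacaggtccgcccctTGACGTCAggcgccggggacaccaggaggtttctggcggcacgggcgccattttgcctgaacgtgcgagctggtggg
Ccnl2, chr4:155812239-155812538, plus strand: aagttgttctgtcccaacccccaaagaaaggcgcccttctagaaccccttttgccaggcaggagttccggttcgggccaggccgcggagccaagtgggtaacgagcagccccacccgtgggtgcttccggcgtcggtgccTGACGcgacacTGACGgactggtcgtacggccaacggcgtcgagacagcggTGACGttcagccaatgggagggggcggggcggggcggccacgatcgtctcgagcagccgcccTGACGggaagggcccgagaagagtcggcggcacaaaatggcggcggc
On both strands, TGACGTCA occurred in 3 of the 37 members with a promoter entry (8.11%) and in 2.03% of 27025 genes with one. TGACG, which the palindrome contains, occurred in 24 of 37 (64.9%) and in 23% of genes, CCAAT in 23 (62.2%, against 41.1%) and GGGCGGG in 21 (56.8%, against 27.9%). CACGTG occurred in 5 (13.5%, against 8.09%), CCGGAAG in 7 (18.9%, against 9.93%) and TATAAA in 7 (18.9%, against 15.7%). The members' promoters had a median GC content of 63% and all promoters 52.8%, and the part of base composition in these shares was not tested. Clk1, U2af2 and Rbfox2 have no entry in the table, and for 10 members with several promoters a match in any of them was counted. A match is a string of letters and not evidence of binding.

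Among the SR proteins, the 7 measured members all lay above the all-gene median in DIA fat, with a median of 0.40 and a range of 0.10 to 0.84. None of them passed both thresholds. Srsf1, the founding SR protein, was the highest, and Srsf5, at 0.10, and Srsf3, at 0.14, were the lowest. Srsf2, Srsf6 and Srsf11 lay between 0.40 and 0.48, and Srsf10, which represses splicing when dephosphorylated, at 0.18.

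The SR-like proteins were further apart, with a median of 0.75 and 6 of 7 above the all-gene median. Son, a large scaffold of nuclear speckles, read 11.65 and 12.64 on NOR, 14.22 and 13.53 on DIA, 13.44 and 11.78 on AAT and 13.17, 10.76 and 12.10 on PM. Its difference of 1.84 (SE 0.72) was the largest of the 40, but its 7 probe sets ran from -1.44 to 1.84, with 5 above the all-gene median. Srrm2, another speckle scaffold, read 12.40 and 13.36 on NOR, 15.20 and 13.94 on DIA, 14.31 and 12.83 on AAT and 14.00, 11.27 and 13.15 on PM. Both DIA arrays were above both NOR arrays, and all 3 of its probe sets were higher, by 1.37 to 1.99. Tra2a, which activates exons that carry purine-rich enhancers, read 9.97 and 11.38 on NOR, 11.84 and 11.94 on DIA, 11.75 and 11.12 on AAT and 10.90, 9.74 and 10.76 on PM. The DIA arrays were above both NOR arrays, by 1.33 on average (SE 0.49), and 4 of its 6 probe sets were above the all-gene median. Its relative Tra2b lay at -0.02, Rbm39 and Luc7l2, which contacts the U1 snRNP, at 0.75 each, and Srrm1, a coactivator of splicing, at 0.22.

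By the probe set used, the hnRNP proteins all lay above the all-gene median, 10 of 10, but by little, with a median of 0.41. Hnrnph1, which binds G-rich elements, was the highest of them at 1.14 (SE 0.45), reading 11.11 and 12.23 on NOR, 12.63 and 12.76 on DIA, 13.02 and 12.38 on AAT and 12.30, 11.15 and 11.94 on PM. Hnrnpk, the member with the highest signal in fat, read 13.58 and 14.26 on NOR, 14.67 and 14.33 on DIA, 14.49 and 14.41 on AAT and 14.26, 14.38 and 14.38 on PM. Apart from NOR 1, its arrays lay within a narrow band. The other 8 lay between 0.08 for Hnrnpu, a nuclear matrix protein, and 0.67 for Hnrnpa1, a silencer of exons, with Ptbp1, the polypyrimidine tract binding protein, at 0.37. Hnrnpa1, Hnrnpc and Ptbp1 each had 2 of 3 probe sets below the all-gene median. Those of Hnrnpa1 reached -1.13, and 1 was lower past both thresholds.

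The core spliceosome proteins were divided, with 2 of 5 above the all-gene median and a median of -0.03. Sf3b1, the branch site subunit of the U2 snRNP, read 11.17 and 12.21 on NOR, 12.96 and 12.62 on DIA, 12.52 and 11.43 on AAT and 11.80, 10.68 and 11.77 on PM. It was the core protein with the largest upward difference, 1.21 (SE 0.50), with 4 of 4 probe sets above the all-gene median. Prpf8, the scaffold at the catalytic centre, was lower on both DIA arrays, at 9.11 and 9.91 against 10.05 and 10.28 on NOR, and read 10.43 and 10.25 on AAT and 9.99, 10.18 and 9.99 on PM. U2af2, the large subunit of the factor that binds the polypyrimidine tract, read 10.01 and 10.39 on NOR, 10.47 and 10.89 on DIA, 10.31 and 10.60 on AAT and 9.67, 9.76 and 10.11 on PM. Its DIA arrays were above both NOR arrays and its PM arrays below both DIA arrays. U2af1 and Sf3a1, a U2 snRNP subunit, lay at -0.12 and -0.03.

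The RNA helicases Ddx5 and Ddx17 lay 0.82 and 1.31 (SE 0.53) above the all-gene median in DIA fat. Ddx17 read 12.79 and 13.71 on NOR, 14.61 and 14.29 on DIA, 14.22 and 13.28 on AAT and 13.61, 12.30 and 13.76 on PM. Ddx5 read 13.67 and 13.83 on NOR, 14.23 and 14.68 on DIA, 13.80 and 13.76 on AAT and 13.91, 13.37 and 13.28 on PM, so its DIA arrays lay above all the other fat arrays. Of the remaining regulators, Rbm5, a regulator of apoptosis genes' splicing, lay at 1.00, Mbnl1 at -0.14 and Rbfox2, a tissue-specific regulator, at -0.56. Mbnl1, which drives adult splice patterns, read 12.79 and 12.87 on NOR, 12.52 and 12.63 on DIA, 13.00 and 13.26 on AAT and 13.12, 12.89 and 12.81 on PM, with the DIA arrays lowest on this probe set. Of its 3 probe sets, 2 lay above the all-gene median in DIA against NOR, up to 2.43, and 1 was higher past both thresholds.

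Within the fat groups, the array with the higher actin ratio mostly had the higher members, but not in every pair or in proportion. PLN pairs went both ways. The members' median over all genes was 4.04 on PLN NOR 1 (ratio 2.31) and 4.59 on NOR 3 (1.55). It was 4.94 on PLN DIA 2 (1.10) and 3.20 on DIA 1 (0.88). In fat, AAT 1, with the higher ratio of its pair, had 39 of 40 members above the all-gene median difference to AAT 2, with a median of 0.89. NOR 2 against NOR 1 gave 36 of 40 and 0.91, PM 1 against PM 2 gave 33 of 40 and 0.56, PM 3 against PM 2 gave 27 of 40 and 0.34. The NOR pair had close ratios (4.30 and 3.63), and PM 3, with a higher ratio than PM 1 (6.32 and 5.93), had the lower members' median (2.89 and 3.53 over all genes). The DIA arrays, with nearly equal ratios, gave 19 of 40 and -0.06. The interquartile range of all genes differed between these arrays too. It was 2.41 and 2.98 on NOR, 2.79 and 3.04 on DIA, 3.38 and 2.67 on AAT and 2.93, 2.29 and 2.52 on PM. In the NOR, AAT and PM pairs it was wider on the array with the higher members, and in the DIA pair it was not. With log2 of the actin ratio in the fit, the median of DIA against NOR was -0.87 in place of 0.51 and 0 members in place of 8 were higher past both thresholds. In fat the DIA arrays had ratios above all the others, so that fit rests on differences within groups. Set against only the 3639 genes at or above the 80th percentile of mean signal, the median was 0.37. The macrophage markers moved as well, with 8 of 10 above the all-gene median and a summed signal of 7773 to 8115 on NOR and 13894 to 28979 on DIA. The matrix markers (8 of 8 above) summed to 30028 to 36251 on NOR and 40461 to 72195 on DIA. The erythroid and platelet markers (6 of 6 measured below) summed to 9337 to 12641 on NOR and 3116 to 3789 on DIA. The part of RNA quality, of the spread of all genes and of these cell types in the result was not tested.

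**Figure D2:**
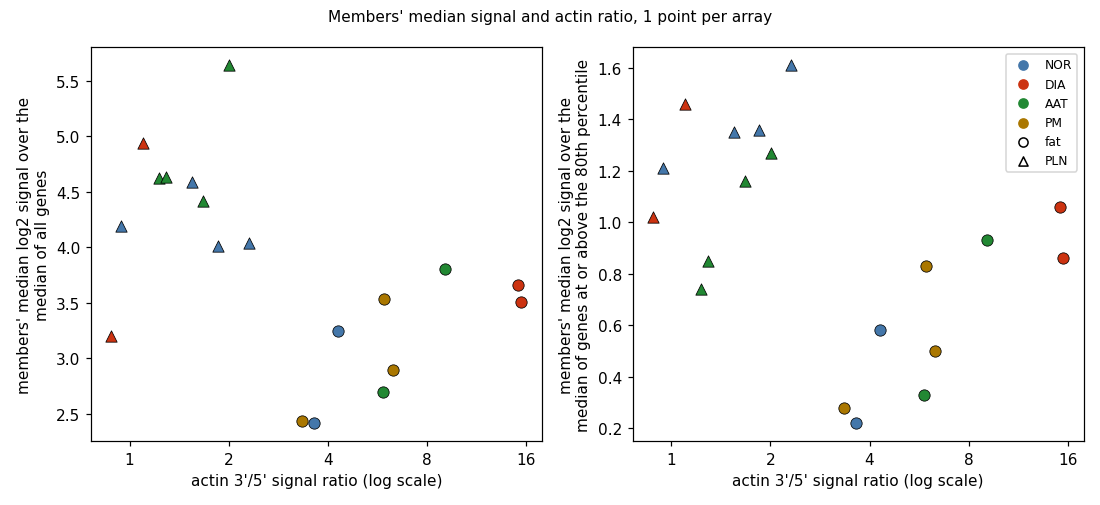
Median log2 signal of the 40 splicing genes over the median of all 18193 genes (left) and over the median of the 3639 genes at or above the 80th percentile of mean signal in the tissue (right), against the actin 3' to 5' ratio on a log axis; each point is 1 array, coloured by group, circles fat and triangles PLNs. In fat the arrays with the lowest ratios, NOR 1 and PM 2, lie lowest in both panels.

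AAT-treated and PM-treated fat were both compared with the same DIA arrays, so a high DIA value lowers every treated difference. The DIA values were known when the genes were listed, so the counts of both comparisons describe these arrays and are no independent test. In AAT against DIA, 17 of 40 members lay above and 23 below the all-gene median, with a median of -0.08. No member passed both thresholds in either direction (2.1% of all genes were higher and 1.62% lower), and none had a limma adjusted p under 0.05 (0% of all genes), against 1 with an unadjusted p under 0.05 (5.01% of all genes). The kinases and cyclins lay at a median of -0.71 with 0 of 6 above the all-gene median, and both helicases lay below it, at -0.67 and -0.70. The members with the smallest p were Prpf8 (0.83, SE 0.35), Ccnl1 (-1.12, SE 0.55), Clk4 (-0.93, SE 0.49), Mbnl1 (0.56, SE 0.29) and Ddx5 (-0.67, SE 0.36), each with a limma adjusted p of 1. For Mbnl1, 2 of 3 probe sets lay below the all-gene median, down to -0.81. The members' median was -0.49 without AAT 1 and 0.22 without AAT 2, so its sign rested on which AAT array was kept.

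In PM against DIA, 29 of 40 lay below the all-gene median and 11 above, with a median of -0.34. Of the 40, 7 were lower past both thresholds (3.09% of all genes) and 0 higher (4.09%). For 13 members all 3 PM arrays lay below both DIA arrays (12.5% of all genes) and for 5 all lay above (18.8%). None had a limma adjusted p under 0.05 (0% of all genes), against 9 with an unadjusted p under 0.05 (10.2% of all genes). Because the DIA arrays were in view when the genes were listed, nothing is read from these counts. The 7 were Tra2a (-1.53, SE 0.45), Sf3b1 (-1.48, SE 0.45), Son (-1.98, SE 0.65), Ddx17 (-1.34, SE 0.49), Clk1 (-1.34, SE 0.50), Srrm2 (-1.88, SE 0.73) and Ccnl2 (-1.79, SE 0.73), with limma adjusted p between 0.413 and 0.502. For Son, 5 of 7 probe sets lay above the all-gene median, up to 1.09, and the mean over them was -0.06. The helicases and the kinases and cyclins were again the roles furthest down, at medians of -1.19 and -1.05, with the SR-like proteins at -0.66. Without PM 2, the PM array with the lowest signal for each of these genes, 2 members in place of 7 passed, and without PM 1 there were 11. The share of all genes was not counted in these fits. With the actin ratio in the fit the median was 0.80 and 0 members were lower. In the same comparison the matrix markers had 8 of 8 below the all-gene median (summed signal 21496 to 28912 on PM) and the macrophage markers 9 of 10 (11050 to 12293). The erythroid and platelet markers had 6 of 6 measured above it (6242 to 8581). Their part in these values was not tested.

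The treated fat was also compared with the NOR arrays, whose values were likewise known when the genes were listed. In AAT against NOR, 39 of 40 lay above the all-gene median, with a median of 0.42, and Hnrnph1 alone was higher past both thresholds (1.12, SE 0.45, limma adjusted p = 0.937), where 2.42% of all genes were higher and 2.17% lower. Without AAT 1 the median was 0.04, and with the actin ratio in the fit -0.17. In PM against NOR the median was 0.10 with 26 of 40 above, and no member passed, where 1.72% of all genes were higher and 0.704% lower. No gene in either comparison had a limma adjusted p under 0.05 (0% and 0%), and 1 and 0 members had an unadjusted p under 0.05 (5.41% and 2.81% of all genes).

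**Figure D3:**
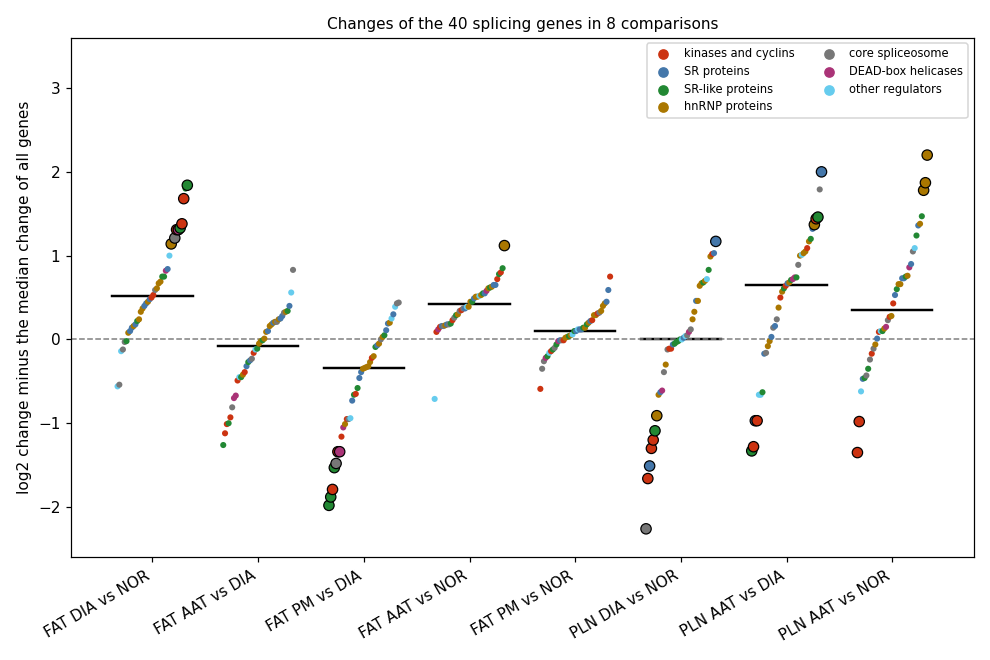
Log2 change of each of the 40 splicing genes minus the median change of all genes in 8 comparisons, coloured by role; large outlined points passed a fold change over 2 with an unadjusted p of at most 0.05, black bars are the members' medians. In fat DIA against NOR the median is 0.51 and in PM against DIA -0.34, and the outlined genes fall on opposite sides of 0. These comparisons share the DIA arrays. The fold change is counted before the all-gene median is taken off.

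In PLNs the splicing genes showed no common direction in diabetes. In DIA against NOR, 21 of 40 lay above the all-gene median and 19 below, with a median of 0.00. Of the 40, 7 were lower past both thresholds (7.83% of all genes) and 1 was higher (2.19%). Both DIA arrays lay above all 4 NOR arrays for 6 members (7.47% of all genes) and below for 7 (14.5%). No member had a limma adjusted p under 0.05 (0.033% of all genes did), against 8 with an unadjusted p under 0.05 (10.3% of all genes). The rank product called 1 higher (10% of all genes) and 4 lower (13.9%). Without DIA 2 only 1 DIA array is left, so calls past the adjusted threshold in that fit are not given. The 2 DIA arrays differed from each other, with the members' median 3.20 above that of all genes on DIA 1 and 4.94 on DIA 2, against 4.01 to 4.59 on the NOR arrays. Without DIA 1 the median was 0.60, without DIA 2 it was -0.54.

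The kinases and cyclins were the PLN role furthest down, with 5 of 6 below the all-gene median and a median of -0.66. Clk1 read 14.04, 12.96, 13.45 and 13.58 on NOR, 11.29 and 12.11 on DIA and 11.69, 11.18, 11.80 and 13.41 on AAT. Both DIA arrays lay below all 4 NOR arrays, a difference of -1.66 (SE 0.52, limma adjusted p = 0.222). Srpk1, the cytoplasmic SR protein kinase, read 11.38, 11.33, 11.70 and 11.60 on NOR, 10.29 and 10.02 on DIA and 11.26, 11.20, 10.88 and 11.73 on AAT. It too was separate between DIA and NOR (-1.20, SE 0.40, limma adjusted p = 0.232), but its other probe set lay at 0.03. Ccnl2 read 12.69, 12.18, 12.54 and 12.85 on NOR, 10.12 and 12.11 on DIA and 13.07, 10.71, 10.81 and 12.96 on AAT, with a difference of -1.30 (SE 0.64, limma adjusted p = 0.454). This rested on DIA 1, without which it was -0.12, and 1 of its 3 probe sets was higher, by 1.17.

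The 2 probe sets of Clk4 went opposite ways in PLNs. The brighter one there, an array feature distinct from that used in fat, read 11.13, 11.72, 11.65 and 11.20 on NOR, 11.75 and 12.85 on DIA and 9.61, 11.32, 11.70 and 11.39 on AAT. Both DIA arrays lay above all NOR arrays. The one used in fat read 11.57, 10.59, 11.07 and 10.85 on NOR, 9.63 and 10.30 on DIA and 9.09, 7.83, 8.69 and 10.85 on AAT, with both DIA arrays below all NOR arrays. No level of Clk4 RNA as a whole follows from these readings.

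**Figure D4:**
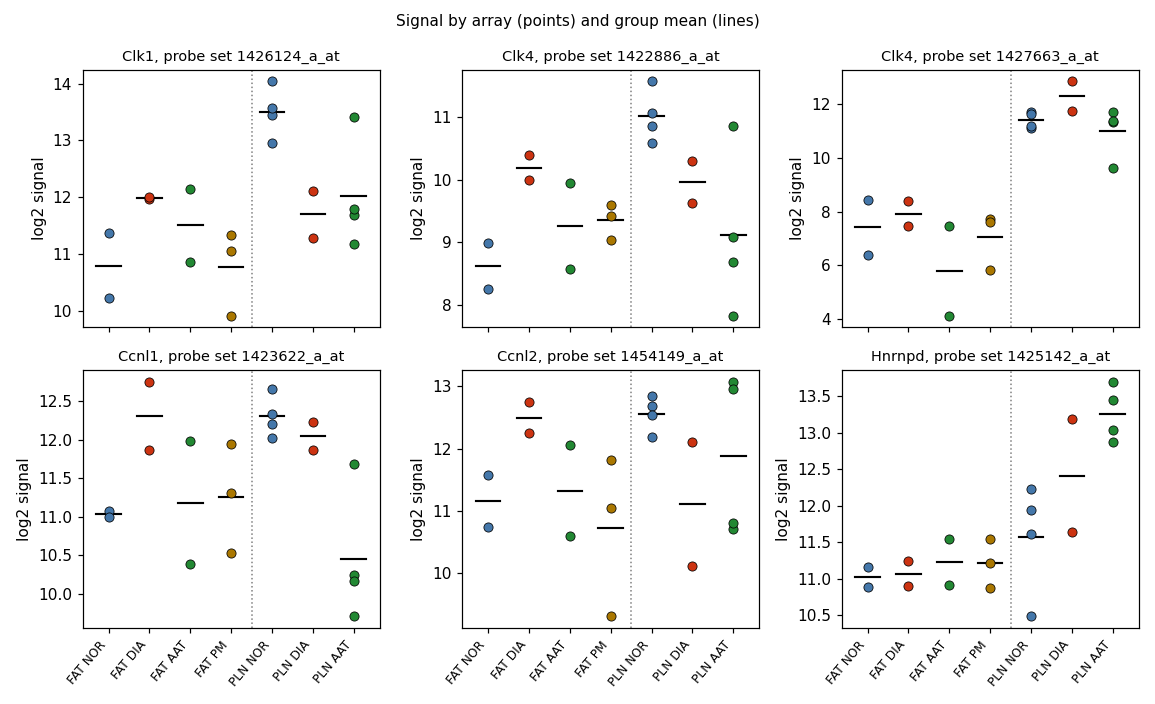
Log2 signal of Clk1, both probe sets of Clk4, Ccnl1, Ccnl2 and Hnrnpd on every array (points), with group means (lines); fat groups lie left of the dotted line and PLN groups right. Clk1 is high on the DIA arrays in fat and low on them in PLNs, and the 2 Clk4 probe sets part in PLN DIA. Ccnl2 is drawn with the probe set used in PLNs, so its fat points differ from the readings given for fat.

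The other members that were lower past both thresholds in PLN DIA were U2af1, Srsf6, Rbm39 and Hnrnpa1 (-0.91, SE 0.45). U2af1, the subunit that reads the 3' splice site dinucleotide, read 10.09, 10.63, 9.93 and 9.46 on NOR, 5.60 and 9.64 on DIA and 8.93, 10.55, 8.24 and 8.67 on AAT. Its difference of -2.26 (SE 0.82, limma adjusted p = 0.302) rested on DIA 1, since DIA 2 lay within the NOR range. Srsf6 had the same form, at 12.51, 12.21, 12.85 and 13.02 on NOR, 9.46 and 12.51 on DIA and 12.53, 12.12, 12.68 and 13.33 on AAT (-1.51, SE 0.59, limma adjusted p = 0.330). Of its 4 probe sets, 2 lay above the all-gene median, up to 0.85. Rbm39, an SR-like partner of U2AF, read 13.18, 12.65, 12.85 and 12.85 on NOR, 11.24 and 12.03 on DIA and 11.60, 10.92, 12.46 and 13.12 on AAT. Its DIA arrays lay below all NOR arrays (-1.09, SE 0.50, limma adjusted p = 0.408). Of its 12 probe sets, however, 9 lay above the all-gene median, up to 1.82, and the mean over them was 0.59. Srsf10 was the member that was higher past both thresholds, at 1.17 (SE 0.47, limma adjusted p = 0.473). Without DIA 1, U2af1 was at -0.05, Srsf6 at 0.2, Rbm39 at -0.51 and Hnrnpa1 at -0.28.

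**Figure D5:**
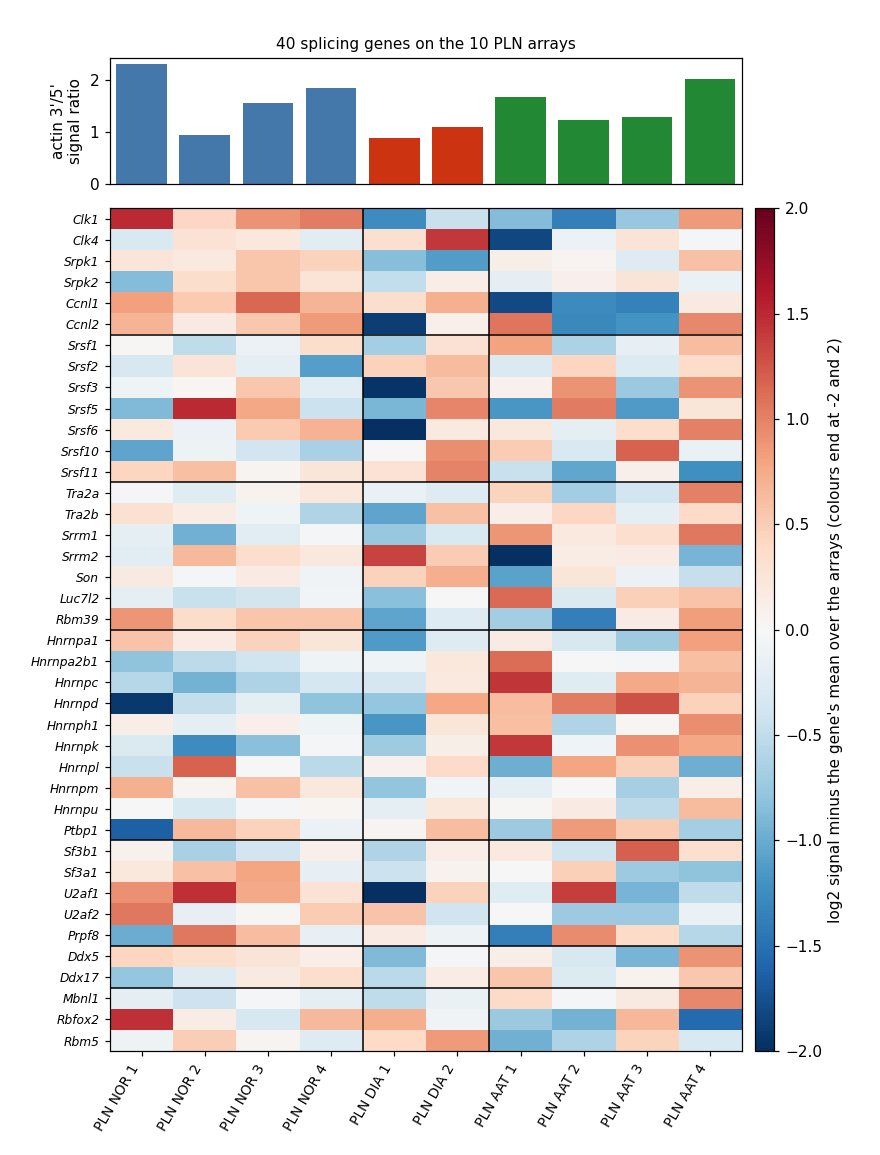
Heat map of the 40 measured splicing genes (rows, in blocks by role) on the 10 PLN arrays (columns), each cell the log2 signal minus the gene's mean over the 10 arrays, under bars of each array's actin ratio, 3' over 5' end. DIA 1 is blue for U2af1 and Srsf6 where DIA 2 is not, and Hnrnpd is above its mean on all 4 AAT arrays.

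In AAT-treated PLNs against DIA, 29 of 40 lay above the all-gene median and 11 below, with a median of 0.65. Of the 40, 4 were higher past both thresholds (7.59% of all genes) and 4 lower (8.57%). None had a limma adjusted p under 0.05 (0.203% of all genes), against 10 with an unadjusted p under 0.05 (16.6% of all genes). With median centring of each array, 13 members were higher past both thresholds and 0 lower, and the share of all genes was not counted in that setting. Ccnl1 read 12.34, 12.03, 12.66 and 12.20 on NOR, 11.87 and 12.23 on DIA and 9.71, 10.24, 10.17 and 11.69 on AAT, so that every AAT array lay below every other PLN array (-1.28 against DIA, SE 0.48, limma adjusted p = 0.146). Srrm2 read 11.94, 12.81, 12.51 and 12.37 on NOR, 13.51 and 12.66 on DIA and 9.92, 12.30, 12.32 and 11.23 on AAT (-1.33, SE 0.55, limma adjusted p = 0.177). Srsf11 read 12.08, 12.25, 11.71 and 11.89 on NOR, 11.94 and 12.64 on DIA and 11.21, 10.61, 11.76 and 10.43 on AAT (-0.97, SE 0.44, limma adjusted p = 0.181). Both were lower on every AAT array than on either DIA array. For Srsf11, however, 2 of 4 probe sets lay above the all-gene median, up to 0.92, and the mean over all 4 was 0.34. Clk4 by its brighter probe set was the fourth lower member (-0.97, SE 0.52). The higher members were Srsf6 (2.00, SE 0.59), Srpk1 (1.44, SE 0.40), Srrm1 (1.46, SE 0.42) and Hnrnpk (1.37, SE 0.49), with limma adjusted p between 0.192 and 0.287. Without DIA 1, Srsf6 was at 0.23 and Hnrnpk at 0.71, and quantile normalization put Hnrnpk at 0.32. For Srrm1, 6 of 7 probe sets lay below the all-gene median and the mean over all 7 was -0.16. The other Srpk1 probe set lay at 0.21.

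The spread of all genes also moved with the AAT group in PLNs. The interquartile range of all genes was 2.28 to 3.34 on NOR arrays, 2.78 and 3.86 on DIA and 2.99 to 4.49 on AAT. Past both thresholds in AAT against DIA, 23% of the 3639 genes at or above the 80th percentile of mean signal were higher and 3.54% lower. These genes were themselves 0.46 higher, before the all-gene median is taken off, and against them the members' median was -0.12. After quantile normalization the median was -0.19. Without DIA 1 it was -0.05 and without DIA 2 it was 1.37. The adipocyte markers summed to 10721 to 59731 on AAT arrays, 2732 and 4919 on DIA and 3764 to 8963 on NOR, and the pancreatic acinar markers to 463 to 269298 on AAT, 994 and 12975 on DIA and 381 to 1528 on NOR. Their part in these values was not tested.

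AAT against NOR in PLNs was the one comparison with members past the adjusted threshold, 2 of 40, a count near the 3.65% of all genes. Nothing is read from that count. Ccnl1 fell by 1.35 on the log2 scale (SE 0.39, limma adjusted p = 0.0206), with all 4 AAT arrays below all 4 NOR arrays. Hnrnpd, also called AUF1, which binds AU-rich elements of unstable mRNAs, rose by 2.20 (SE 0.42, limma adjusted p = 0.0328). Before the all-gene median is taken off, the scale of the test, the differences were -1.85 for Ccnl1 and 1.69 for Hnrnpd. Hnrnpd read 10.49, 11.94, 12.23 and 11.61 on NOR, 11.64 and 13.18 on DIA and 13.03, 13.45, 13.69 and 12.87 on AAT, so the AAT arrays lay above all NOR arrays. The call for Ccnl1 held in 8 of 10 other settings and in 7 of 10 fits without 1 array, with limma adjusted p up to 0.353 and 0.0846. The call for Hnrnpd held in 7 of 10 and in 4 of 10, with limma adjusted p up to 0.283 and 0.141. Its 3 probe sets were all above the all-gene median, between 0.37 and 2.20. Quantile normalization put Hnrnpd at 1.07 and Ccnl1 at -2.21.

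Clk1 (-0.98, SE 0.43), Hnrnpc (1.78, SE 0.37) and Hnrnpk (1.87, SE 0.40) came next, with limma adjusted p of 0.0541, 0.0570 and 0.0583. Quantile normalization put them at -2.13, 0.33 and 0.39. Hnrnpc, which covers long introns, read 13.76, 13.38, 13.71 and 13.98 on NOR, 13.99 and 14.52 on DIA and 15.76, 14.09, 15.08 and 15.00 on AAT, each AAT array above each NOR array. Of its 3 probe sets, however, 1 lay below the all-gene median, at -0.71, and was lower past the fold and unadjusted thresholds. Hnrnpk read 14.48, 13.52, 13.93 and 14.73 on NOR, 14.06 and 14.89 on DIA and 16.18, 14.69, 15.69 and 15.54 on AAT, overlapping by 1 array. Hnrnpa2b1, the brightest member in PLNs, read 14.14, 14.42, 14.55 and 14.86 on NOR, 14.86 and 15.16 on DIA and 16.06, 14.95, 14.91 and 15.55 on AAT. In the same comparison 3 members were higher past the fold and unadjusted thresholds (5.01% of all genes) and 2 lower (15.7%), and 29 of 40 lay above the all-gene median, with a median of 0.36. With median centring of each array, 12 members were higher past these thresholds and 0 lower, and the share of all genes was not counted in that setting. Of the genes at or above the 80th percentile of mean signal, 19.1% were higher past the fold and unadjusted thresholds and 3.22% lower. Set against these genes of high signal the members' median was -0.48, and after quantile normalization -0.50.

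The difference between tissues was fitted with 1 probe set for both. Its fat DIA against NOR values were known when the genes were listed, so the counts of the DIA effect describe these arrays and are no independent test. In the DIA effect, fat minus PLN, 29 of 40 members lay above the all-gene median, with a median of 0.67. Of the 40, 6 were higher past both thresholds (6.21% of all genes) and 0 lower (2.58%). None had a limma adjusted p under 0.05 (0.011% of all genes), against 6 with an unadjusted p under 0.05 (8.78% of all genes). The 6 were Clk1 (2.88, SE 0.82), Clk4 (2.49, SE 0.91), Ccnl2 (2.66, SE 1.06), Srpk1 (1.22, SE 0.56), Hnrnpa1 (1.64, SE 0.81) and Hnrnph1 (1.35, SE 0.70), with limma adjusted p between 0.270 and 0.555. With the actin ratio in the fit the median was -0.70, and without PLN DIA 1 it was -0.04. In the AAT effect, AAT against DIA in fat minus PLN, 12 of 40 lay above the all-gene median, with a median of -0.77. No member passed in either direction (4.02% of all genes higher and 4.67% lower), none had a limma adjusted p under 0.05 (0% of all genes) or an unadjusted p under 0.05 (8.69% of all genes), and after quantile normalization the median was 0.02.

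Other genes of RNA processing were divided in fat. In DIA against NOR, 8 of 16 snRNP core proteins lay above the all-gene median (median 0.01), as did 18 of 38 further spliceosome factors (-0.07) and 14 of 25 other regulators of splice site choice (0.04). Relatives of the SR and hnRNP proteins lay higher, 25 of 33 with a median of 0.63, with Pnn, a speckle protein, at 1.49 (SE 0.47) and Nktr, an SR-rich cyclophilin, at 1.49 (SE 0.58). Cleavage and polyadenylation factors had 6 of 16 above (-0.11), with Nudt21 at -1.19 (SE 0.36) and Pabpn1 at 1.41 (SE 0.57). The nonsense-mediated decay list had 5 of 7 above (0.29) and the nuclear-retained RNAs 4 of 8 (0.40). None of these had a limma adjusted p under 0.05.

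In PLNs of AAT-treated mice against DIA, 12 of 16 snRNP core proteins lay above the all-gene median (median 0.75), 6 of them higher past both thresholds. Snrpb, part of the Sm ring, was the highest at 2.65 (SE 0.53, limma adjusted p = 0.0906). Of the spliceosome factors 28 of 38 lay above (0.59), of the SR and hnRNP relatives 20 of 33 (0.19) and of the regulators of splice site choice 18 of 25 (0.41), among them Ewsr1 at 2.54 (SE 0.57, limma adjusted p = 0.106). Past the same thresholds 7.59% of all genes were higher, and 23% of the genes at or above the 80th percentile of mean signal, with a median change of 0.46 before the all-gene median is taken off. No gene of these lists had an adjusted p under 0.05.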

How the data were processed

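RNA of fat and PLNs was extracted with Trizol, amplified with the NuGEN WT-Ovation Pico system, labelled with biotin and hybridised to Affymetrix mouse arrays, per the labels. The deposited table holds linear signal intensity from MAS5 (named in the submitters' processing notes) for 45101 probe sets on 19 arrays, and each array's mean, with 2% trimmed off each end, is 500. The study's methods name RMA signals and RankProd, whereas the table holds MAS5 values, so limma was used and the rank product was an alternative.

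Values under 1 were set to 1 and log2 was taken. 64 control probe sets were left out, 34945 of 45037 named 1 gene (932 several, 9160 none). For each of 18193 genes the probe set with the highest mean was used. limma 3.58.1 in R 4.3.3 fitted group means per tissue (all 19 arrays for differences between tissues) with a mean-variance trend, and p-values were Benjamini-Hochberg adjusted over all probe sets. Thresholds were a fold change over 2 with an unadjusted p of at most 0.05, and an adjusted p under 0.05. They apply to the difference before the all-gene median is taken off. Genes named by array were the 5 members with the smallest p in each of 6 comparisons, the 3 with the highest signal per tissue, and Clk1, Clk4 and Ccnl2. Others are given by difference or range. Members and lists were chosen with earlier results of these data known. Arrays have no read depth, and their number limits the precision. The scripts were tested on simulated data.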

Additional observations from a re-analysis of the deposited data

Results flagged for a closer look

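For 3 members both DIA arrays lay above both NOR arrays in fat and below all 4 NOR arrays in PLNs, on the same probe set. The share of all genes with that pattern was not counted, so nothing is read from the count. Taken singly, by the probe set of each tissue, 17.2% of all genes were higher in this way in fat and 14.5% lower in PLNs. The difference between the tissues, fat minus PLN and before the all-gene median is taken off, was 3.01 for Clk1 (SE 0.82, limma adjusted p = 0.270), from 1.2 in fat and -1.81 in PLNs. It was 2.62 for Clk4 by the probe set used in fat (SE 0.91, limma adjusted p = 0.392), from 1.57 and -1.05. It was 2.79 for Ccnl2 (SE 1.06, limma adjusted p = 0.439), from 1.34 and -1.45. None of the 3 passed the adjusted threshold, and the fat part of each difference was known when the genes were listed. The other Clk4 probe set was higher in PLN DIA, as was 1 Ccnl2 probe set, by 1.17, with a difference between tissues of -0.65. For Ccnl2 the PLN groups were separated only by 12.11 on DIA 2 against 12.18 on NOR 2. Of 82 sets of 4 arrays tested for a single array far from the others, 0 stood out.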

How the results depend on the processing

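With the actin ratio as a covariate the medians were -0.87 for fat DIA against NOR, 0.68 for AAT against DIA, 0.80 for PM against DIA, -0.17 for AAT against NOR, -0.70 for the DIA effect and -0.02 for the AAT effect. In fat DIA against NOR it gave Clk1 -2.57, Clk4 -0.49, Ccnl1 -2.0, Tra2a -1.83, Son -3.11, Hnrnph1 -1.71, Sf3b1 -2.23 and Ddx17 -2.42. In PM against DIA it gave Clk1 1.83, Ccnl2 3.02, Tra2a 1.04, Srrm2 2.59, Son 2.07, Sf3b1 1.33 and Ddx17 1.70, and in AAT against NOR Hnrnph1 -0.18. In the DIA effect it gave Clk1 -0.87, Clk4 -0.69, Ccnl2 -2.08, Hnrnpa1 -0.22 and Hnrnph1 -1.10. Quantile normalization gave -0.19 for PLN AAT against DIA, -0.50 for PLN AAT against NOR and 0.02 for the AAT effect. Against genes at or above the 80th percentile, an alternative chosen after seeing the data, these were -0.12, -0.48 and -0.05. The mean over all probe sets gave Son -0.06 in PM against DIA and Rbm39 0.59 in PLN DIA against NOR. In PLN AAT against DIA it gave Srrm1 -0.16 and Srsf11 0.34. Leaving out 1 array gave -0.05 to 1.37 for PLN AAT against DIA, -0.04 to 1.14 for the DIA effect and -1.16 to -0.04 for the AAT effect, each end without PLN DIA 1 or PLN DIA 2. It gave 0.21 to 0.93 for fat DIA against NOR, without NOR 1 and NOR 2. The count of 8 higher members there was 1 with median centring or without a variance trend, 3 with the filter on dim probe sets, and 1 to 10 when 1 array was left out. The 7 lower members of PM against DIA were 0 to 8 over the settings and 2 to 11 without 1 array, and the 7 of PLN DIA against NOR 2 to 8 and 1 to 9. In PLN AAT against DIA the 4 higher members were 0 to 13 and 1 to 10, and in PLN AAT against NOR the 2 past the adjusted threshold were 0 to 5 and 0 to 4. In PLN AAT against NOR the 3 higher members were 0 to 12 and the 2 lower 0 to 10, and in the DIA effect the 6 higher were 2 to 13. Median centring gave 13 higher and 0 lower in PLN AAT against DIA, and 12 higher and 0 lower in PLN AAT against NOR. Apart from the rank product, the share of all genes was not counted beside the counts of these settings and fits. The replicate numbers were not taken to pair the arrays, since not every same-numbered pair had deviations that correlated over 0.1. In fat 2 of 12 did (-0.261 to 0.291) and in PLNs 6 of 8 (-0.041 to 0.281). With the replicate block the medians were 0.51 for fat DIA against NOR, -0.27 for PM against DIA, 0.18 for PLN DIA against NOR and 0.44 for PLN AAT against DIA, and 5 members in place of 2 passed in PLN AAT against NOR. The causes were not tested. Signals of dim probe sets are limited by background, and 2 arrays in a group give a weak estimate of its spread.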
